A study of Rattus norvegicus with 6 samples.

Results

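Cellular glucose carriers of the rat kidney were examined in the renal cortex of animals given potassium bromate, an oxidant known to damage renal tubules, and of animals given water. The 8 genes were the sodium-coupled carriers Slc5a1 and Slc5a2 and the facilitative carriers Slc2a1, Slc2a2, Slc2a3, Slc2a4, Slc2a5 and Slc2a9. Every non-control probe whose transcript accession belonged to one of these genes was taken, which gave 16 of the 61537 probes on the array, and the 8 genes are among 15645 that these probes name. The arrays came from 6 male Sprague-Dawley rats bought at 5 weeks of age, 3 given potassium bromate at 100 mg/kg/day for 4 weeks and 3 given water for 4 weeks. Both groups ate the same basal diet, the labels name no engineered allele, and each rat gave the RNA for 1 array labelled in 1 colour.

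Glucose filtered at the glomerulus is taken back by the proximal tubule. SGLT2, the product of Slc5a2, carries glucose with sodium across the apical membrane of the early, convoluted part, and SGLT1, the product of Slc5a1, takes up what remains in the later, straight part. Glucose leaves the cell on the basolateral side through the facilitative carriers GLUT2 (Slc2a2), mainly in the early part, and GLUT1 (Slc2a1), mainly in later segments. GLUT5 (Slc2a5) carries fructose and GLUT9 (Slc2a9) carries urate, GLUT4 (Slc2a4) is the insulin-regulated carrier of muscle and fat, and GLUT3 (Slc2a3) is the main carrier of neurons.

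Slc5a2 and Slc2a2, the apical and basolateral carriers of the early proximal tubule, moved in opposite directions. The RefSeq promoters of both are shown because these were the genes that passed the test, each as 300 bases of build GRCr8, plus strand, with the 50 bases after the gene's start in capitals. The promoter window of Slc5a2 is chr1:192277371-192277670 and that of Slc2a2 is chr2:113540120-113540419.
Slc5a2: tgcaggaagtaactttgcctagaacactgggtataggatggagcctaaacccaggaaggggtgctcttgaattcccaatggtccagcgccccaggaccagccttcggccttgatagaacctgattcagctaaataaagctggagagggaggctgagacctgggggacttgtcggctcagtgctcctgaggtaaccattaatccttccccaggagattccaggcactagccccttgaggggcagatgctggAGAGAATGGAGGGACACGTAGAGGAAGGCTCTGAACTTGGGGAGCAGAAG
Slc2a2: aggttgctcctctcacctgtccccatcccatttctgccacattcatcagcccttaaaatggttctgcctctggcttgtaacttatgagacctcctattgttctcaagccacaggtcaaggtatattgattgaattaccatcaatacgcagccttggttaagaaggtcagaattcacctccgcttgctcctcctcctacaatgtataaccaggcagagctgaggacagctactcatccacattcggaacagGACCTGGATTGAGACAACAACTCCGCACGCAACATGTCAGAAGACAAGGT
The letters CACGTG, the E box, were searched on both strands and were in neither window, against 6.42% of 33469 rat promoters of the same length. Among the 6 carriers with a promoter sequence, Slc5a1 alone held CACGTG. The arrays measure RNA level and not promoter activity.

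Levels below are log2 processed signals after subtraction of the log2 75th percentile over the array's probes, and differences are log2 values of bromate minus water. Probes of a gene are numbered from the brightest by the mean over all 6 arrays. Levels of different probes are not compared with each other, since probes differ in their response. Each array had 35621 to 38801 probes well above background (57.9% to 63.1%) and 0 saturated probes. One slide held the 5 arrays other than water replicate 1, which lay on a slide of its own. A probe was tested when 3 or more of the 6 arrays had it well above background, which held for 14 of the 16 carrier probes and for 7 of the 8 genes. In the limma fit over 37781 probes, 14.8% were called at a Benjamini-Hochberg adjusted p under 0.05, 7.19% higher and 7.6% lower under bromate. Of the 14 carrier probes, 3 were higher, 3 were lower and 8 were not called, and the 6 called probes belong to 2 genes. Groups did not overlap for 7 of the 14, against 41.1% of all probes tested, and by brightest probe only for Slc5a2 and Slc2a2. The median difference was -0.31 over the 14 carrier probes and -0.02 over all probes tested. Probes of the same gene are not independent, and this carrier median counts Slc5a2 and Slc2a2 by 3 probes each. By brightest probe the differences of the 7 genes were -0.92 (Slc5a2), -0.66 (Slc2a5), -0.33 (Slc2a9), -0.01 (Slc5a1), 0.18 (Slc2a1), 0.52 (Slc2a4) and 1.16 (Slc2a2). As the arrays were made from pieces of cortex, fewer cells of a type and less RNA per cell cannot be told apart.

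**Figure D1:**
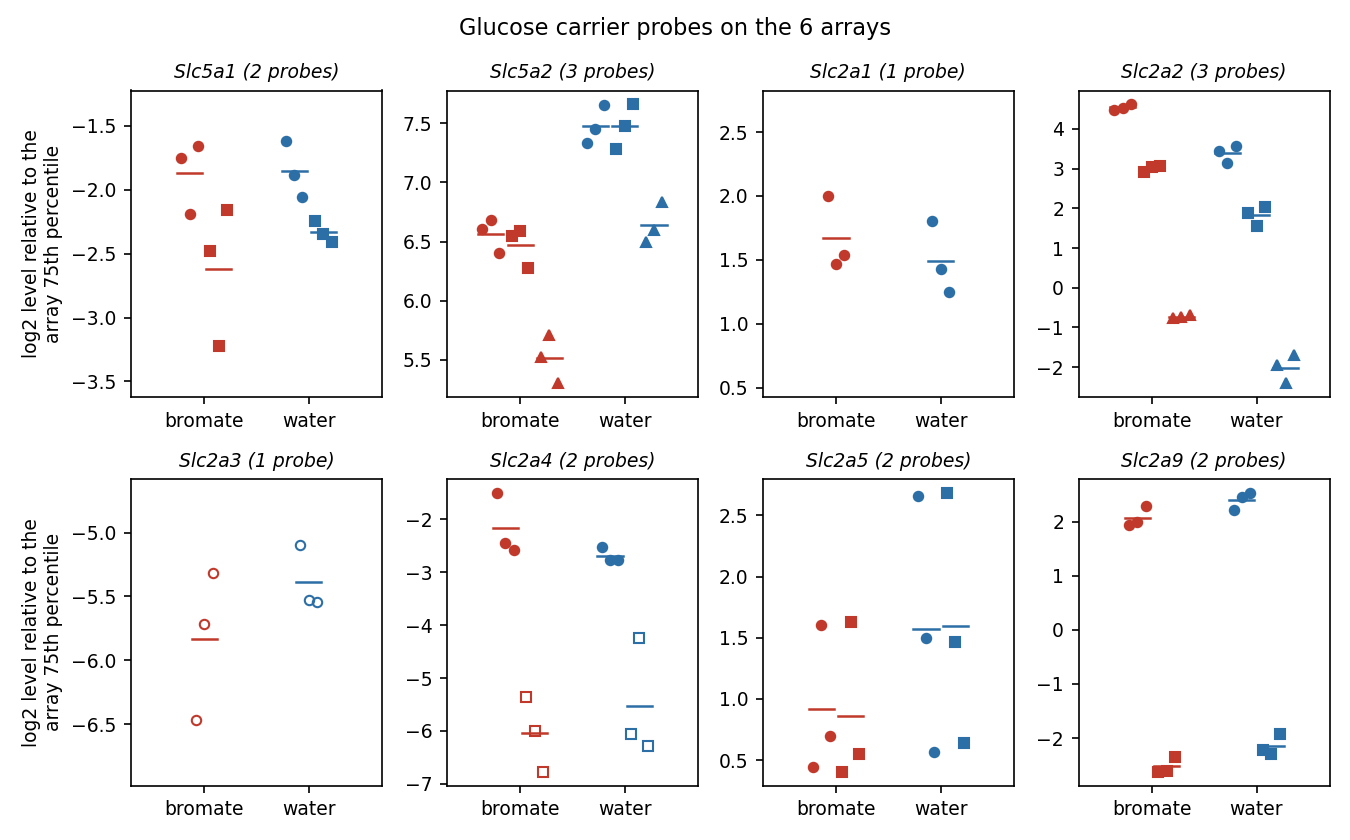
Levels of all 16 carrier probes on the 6 arrays (y axis, log2 signal relative to the array's 75th percentile, with its own span in each panel), with bromate arrays left and water arrays right. Points are single arrays, in the order of replicates 1 to 3, symbol shapes are the probes of a gene, bars are group means, and open symbols are the 2 probes that were not tested; the 3 probes of Slc5a2 lie lower and the 3 of Slc2a2 higher under bromate without overlap.

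Slc5a2, the high-capacity sodium-coupled glucose carrier of the convoluted proximal tubule, was lower under bromate by each of its 3 probes. The level of probe 1 was 6.61, 6.68 and 6.40 on bromate replicates 1, 2 and 3, against 7.34, 7.45 and 7.65 on water replicates 1, 2 and 3. All bromate arrays lay below all water arrays. The group means were 6.56 ± 0.15 under bromate and 7.48 ± 0.16 under water (SD, n = 3 each). The log2 difference was -0.92 ± 0.12 (standard error), that is 1.89-fold lower with a 95% interval of 1.53 to 2.33, and the adjusted p was 0.0107 by limma. Probe 2 had a log2 difference of -1.004 ± 0.14 (2.01-fold lower, adjusted p = 0.0111) and probe 3 one of -1.13 ± 0.14 (2.19-fold lower, adjusted p = 0.00921). Probe 3 was at 5.52, 5.71 and 5.30 on the bromate arrays, against 6.50, 6.60 and 6.84 on the water arrays. With slide as a block, which leaves the 5 arrays of the shared slide, the differences of probes 1 to 3 were -0.99, -1.10 and -1.20, with adjusted p from 0.0177 to 0.02.

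Markers of the convoluted proximal tubule stood beside Slc5a2 as follows. All 13 listed markers were well above background on all arrays. By limma 4 were lower and 0 higher (7 and 1 at an unadjusted p under 0.05), and 9 were not called. Their median difference was -0.33, against -0.92 for Slc5a2 probe 1. Their summed signal, in units of the array's 75th percentile, ranged from 890 to 970.03 under bromate and from 1204 to 1243 under water. The markers that were lower included the endocytic receptor gene Lrp2 (1.86-fold) and the phosphate carrier gene Slc34a3 (1.87-fold). Markers of other cell types also differed between the groups. Of 7 measured thick ascending limb and distal tubule markers 6 were lower and 1 was not called (median difference -1.88), and of 7 collecting duct markers 4 were lower and 3 were not called (median -1.18). Of 9 measured macrophage and leukocyte markers 2 were higher and 7 were not called (median 0.50), and of 6 endothelial markers 1 was lower and 5 were not called (median -0.24). Of 7 tubule injury markers 3 were higher and 4 were not called (median 3.08). Over all named genes tested, the brightest probe was called higher in 8.76% and lower in 8.54%. The part of any of these lists in the Slc5a2 and Slc2a2 differences was not tested.

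**Figure D2:**
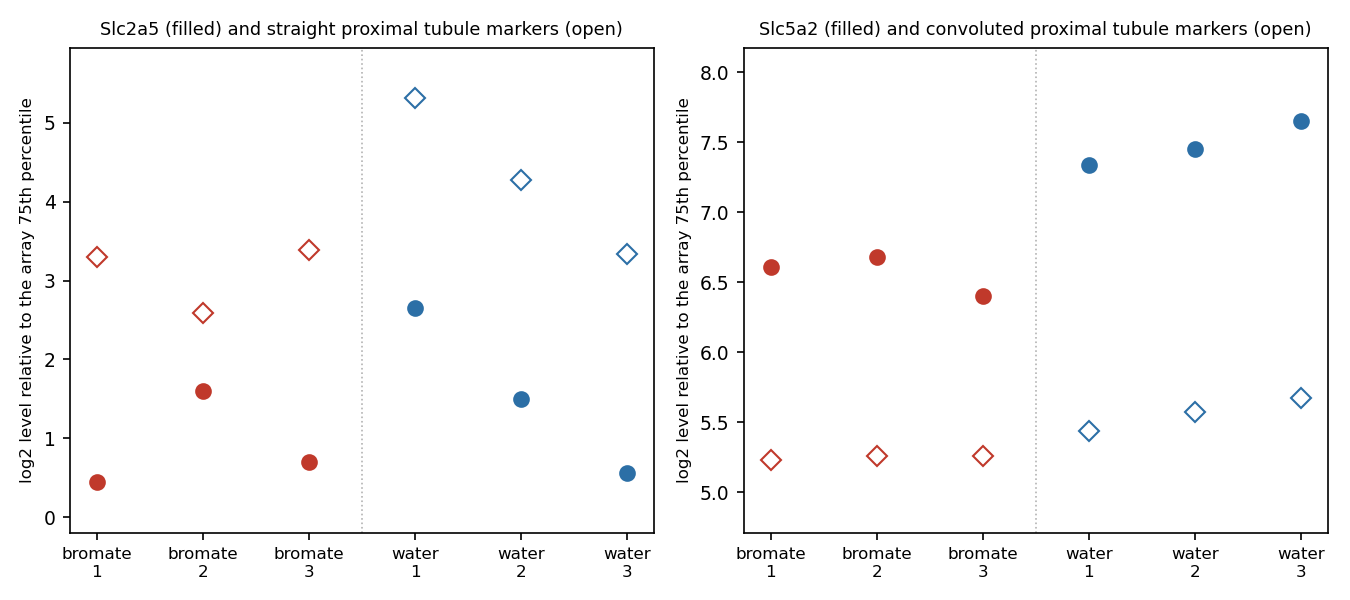
Levels on each array (y axis, log2 relative to the array's 75th percentile) of the carrier's brightest probe (filled circles) and of the mean of the segment's marker list (open diamonds), for Slc2a5 with straight proximal tubule markers and for Slc5a2 with convoluted proximal tubule markers. On the water arrays Slc2a5 spans 0.56 to 2.66 and the mean of its marker list 3.34 to 5.31, both highest on replicate 1.

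Slc5a1, the high-affinity carrier of the straight proximal tubule, did not pass the test. Probe 1 was at -1.75, -2.19 and -1.66 on the bromate arrays, against -1.62, -1.89 and -2.05 on the water arrays. The groups overlapped, with bromate replicate 2 the lowest of the 6 arrays. The log2 difference was -0.01 ± 0.18 with a 95% interval of -0.46 to 0.44 (adjusted p = 0.967). Probe 2 had values of -2.48, -3.23 and -2.16 under bromate, against -2.24, -2.35 and -2.41 under water, and a difference of -0.29 ± 0.27 (adjusted p = 0.499). Bromate replicate 2 was again the lowest.

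Slc2a2, the facilitative carrier through which glucose leaves early proximal tubule cells, was higher under bromate by each of its 3 probes. Probe 1 was at 4.49, 4.53 and 4.62 on the bromate arrays, against 3.46, 3.14 and 3.57 on the water arrays. The bromate arrays lay close together, above all water arrays. The group means were 4.54 ± 0.07 under bromate and 3.39 ± 0.22 under water (SD, n = 3 each). The difference was 1.16 ± 0.13, a 2.23-fold rise with a 95% interval of 1.79 to 2.78 (adjusted p = 0.00653 by limma). Probe 2 had a difference of 1.18 ± 0.14 (2.27-fold, adjusted p = 0.00694). Probe 3, the dimmest, was at -0.76, -0.75 and -0.69 under bromate, against -1.94, -2.40 and -1.70 under water. Its difference was 1.28 ± 0.18 (2.43-fold, adjusted p = 0.0126). With slide as a block the differences of probes 1 to 3 were 1.19, 1.21 and 1.32, with adjusted p from 0.0191 to 0.0314.

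Slc2a1, the widely expressed basal glucose carrier, had 1 probe, which did not pass the test. Its levels were 2.00, 1.47 and 1.54 on the bromate arrays and 1.81, 1.43 and 1.25 on the water arrays. Replicate 1 was the highest in both groups, and the groups overlapped. The difference was 0.18 ± 0.20 with a 95% interval of -0.32 to 0.67 (adjusted p = 0.589). The mean of 5 red cell markers was 3.08, 1.82 and 2.30 on the bromate arrays and 2.78, 1.95 and 2.07 on the water arrays, also with replicate 1 the highest in both groups. By limma 0 of these 5 markers passed the test (also 0 at p under 0.05 before adjustment), and 1 of the 6 listed had no named probe. Their summed signal ranged from 442 to 732 under bromate and from 459 to 661 under water, and their part in the Slc2a1 values was not tested.

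The apical and basolateral carriers were also compared within arrays. The level of Slc5a2 probe 1 minus that of Slc2a2 probe 1 was 2.12, 2.15 and 1.79 on the bromate arrays, against 3.88, 4.32 and 4.09 on the water arrays. This ratio was lower on every bromate array, by 4.21-fold (log2 difference -2.07), with an exact two-sided permutation p of 0.1, the smallest that 3 against 3 arrays allow. That outcome was fixed by the results above, since Slc5a2 was lower and Slc2a2 higher on every bromate array. It adds no evidence to the 2 single-gene results. For Slc5a1 probe 1 minus Slc2a1 probe 1, the late pair, the difference between groups was -0.19 (exact permutation p = 0.4). For Slc5a2 minus Slc5a1 it was -0.90, with values of 8.36, 8.87 and 8.06 under bromate and 8.96, 9.34 and 9.71 under water (exact permutation p = 0.1). These were 3 comparisons, and none can pass 0.05 in this design.

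**Figure D3:**
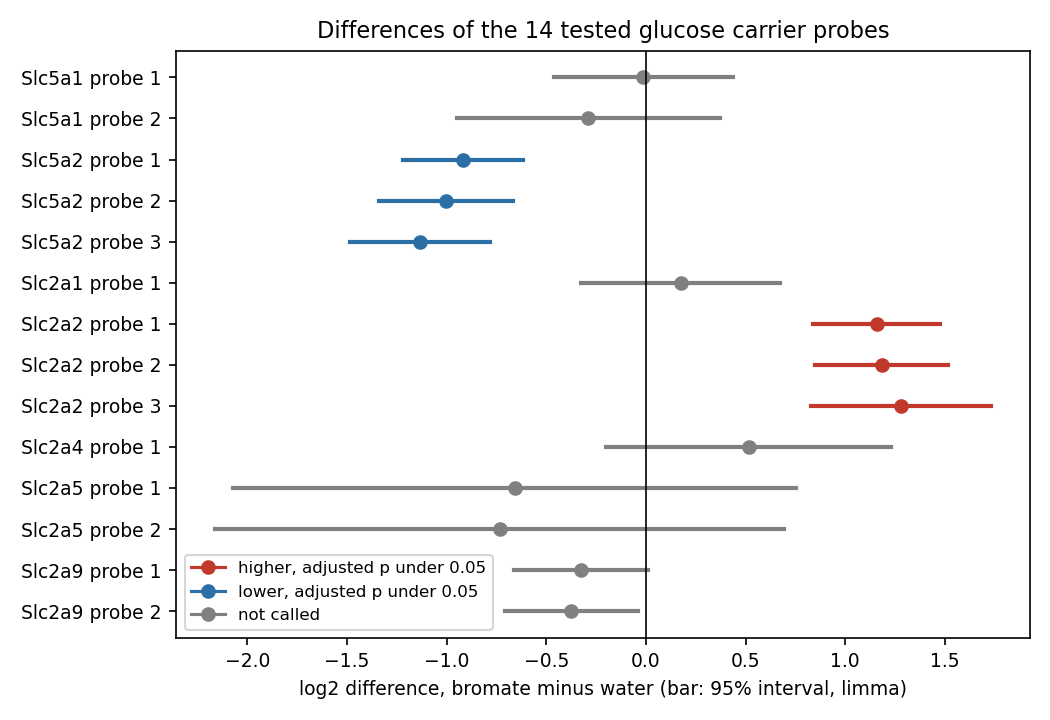
Log2 differences, bromate minus water (x axis), of the 14 tested carrier probes (rows), with 95% intervals from limma as bars. The intervals of the 3 Slc5a2 probes lie below 0, those of the 3 Slc2a2 probes lie above 0, and those of Slc2a5 are the widest among these 14.

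Slc2a5, which encodes the fructose carrier GLUT5 and marks the straight proximal tubule in rat kidney, differed widely between animals of the same group. Probe 1 was at 0.45, 1.60 and 0.69 on the bromate arrays, against 2.66, 1.496 and 0.56 on the water arrays. Water replicate 1 was the highest and bromate replicate 1 the lowest array. Probe 2 gave 0.41, 1.63 and 0.55 under bromate, against 2.68, 1.47 and 0.64 under water, so both probes ordered the water arrays alike, with replicate 1 the highest. The difference of probe 1 was -0.66 ± 0.58 with a 95% interval of -2.07 to 0.75 (adjusted p = 0.47), and that of probe 2 was -0.73 ± 0.58 (adjusted p = 0.424). Without water replicate 1 the difference of probe 1 was -0.12.

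The mean of straight proximal tubule markers spread across the same water arrays, though not every marker did. The mean of the 12 measured of 12 listed markers was 3.30, 2.59 and 3.39 on the bromate arrays and 5.31, 4.28 and 3.34 on the water arrays. The list was chosen with earlier results of these data known, so its likeness to Slc2a5 is a description only. On the water arrays the order of the list mean was that of Slc2a5. Slc7a13, Slc22a7, Slc3a1, Cyp4a2, Agt, Ggt1 and Gclc each had that order there. Agt, Slc22a7, Slc7a13 and Gclc had the largest water SD of the list (3.13, 2.97, 2.54 and 2.02). Slc7a9 (5.53, 5.56 and 5.70) and Cyp2e1 (6.18, 6.20 and 6.59) had the reverse order, and Slc22a13, Slc27a2 and Acsm3 had neither. On the bromate arrays the order of the mean was not that of Slc2a5, since bromate replicate 2 was the highest for Slc2a5 and the lowest for the mean. Of the 12, limma called 0 higher and 0 lower (0 and 7 at an unadjusted p under 0.05), and 11 were well above background on all arrays. The exception was Slc22a7, well above background on 2 bromate and 2 water arrays, so its spread and order rest in part on signal near background. Their summed signal ranged from 667 to 834 under bromate and from 916 to 1624 under water. Slc7a13, an amino acid carrier gene of that segment chosen after its values were seen, was at 1.72, -0.61 and 2.01 under bromate, against 7.61, 4.83 and 2.54 under water. How much of each segment a piece of cortex held, and its part in the Slc2a5 values, was not tested.

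Slc2a9, the urate carrier gene, was slightly lower in mean by both probes and passed the test by neither. Probe 1 was at 1.94, 2.00 and 2.29 on the bromate arrays, against 2.22, 2.45 and 2.53 on the water arrays. Bromate replicate 3 lay above water replicate 1, so the groups overlapped. The difference was -0.33 ± 0.14 with a 95% interval of -0.66 to 0.01 (adjusted p = 0.16). Probe 2 was at -2.62, -2.60 and -2.35 under bromate, against -2.22, -2.30 and -1.93 under water. Its groups did not overlap, and its difference was -0.37 ± 0.14 (adjusted p = 0.117).

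Slc2a4, the insulin-regulated carrier gene, did not pass the test with the probe that could be tested. Probe 1 was at -1.50, -2.44 and -2.57 on the bromate arrays and -2.52, -2.77 and -2.77 on the water arrays. Bromate replicate 1 was the highest array, and bromate replicate 3 lay below water replicate 1. The difference was 0.52 ± 0.29 (adjusted p = 0.272), and 0.18 without bromate replicate 1. The 3 measured of 5 listed fat cell markers averaged -1.88, -1.76 and -1.57 on the bromate arrays and -0.53, -1.73 and -2.31 on the water arrays. Bromate replicate 1 was the lowest bromate array for this mean, but the 3 markers did not run alike. On the bromate arrays Adipoq was at -0.77, -1.02 and -1.02, Cfd at -3.37, -2.08 and -2.42, and Cidec at -1.51, -2.18 and -1.28. The spread of the mean on the water arrays followed Cidec (1.06, -1.40 and -3.96). The 4 measured of 6 listed muscle markers averaged -1.60, -1.71 and -1.62 under bromate and -2.18, -1.74 and -1.73 under water. Limma called 0 of the 3 fat markers (0 higher and 1 lower at an unadjusted p under 0.05) and 1 of the 4 muscle markers higher, and the part of either list in the Slc2a4 values was not tested. Probe 2 of Slc2a4 was well above background on 0 bromate arrays and 1 water array and was not tested. Slc2a3 had 1 probe, which was not well above background on any of the 6 arrays, with values of -6.46, -5.71 and -5.32 under bromate and -5.10, -5.53 and -5.54 under water. No fold is given for these 2 probes, and a level below the array's background cannot be told from none.

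The genes whose pattern over the 6 arrays was most like each carrier were found among 11571 other named genes, by the root mean square distance between the brightest probes, each centred on its own mean. For Slc5a2 they were Klf15, which encodes a Krüppel-like transcription factor (distance 0.0648), and Dhrs3, which encodes a retinal reductase (0.0725). Klf15 was at 3.02 under bromate and 3.90 under water on average, and Dhrs3 at 1.80 under bromate and 2.70 under water. For Slc2a2 the nearest was the growth factor gene Nrg1 (0.0636). Nrg1 averaged 1.97 under bromate and 0.77 under water. For Slc2a9 they were Meis1 (0.0349) and Gpcpd1 (0.0385), for Slc5a1 Neurl3 (0.045) and Lgals5 (0.0712), and for Slc2a1 Rbpjl (0.0659) and Rbm38 (0.0735). For Slc2a4 they were Ddx3y (0.0883) and Coq10b (0.113). The nearest patterns to Slc2a5 were farther away, Pspn at 0.215 and Cyp21a1 at 0.227. The distance is not scaled to a gene's spread, and Slc2a5 had the widest range over the arrays (2.21, against 0.57 to 1.48 for the other carriers). With 6 arrays and this many genes, near patterns are a description of these arrays.

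The called genes among other genes of glucose carriage and use were lower under bromate. Of 45 genes in 4 lists 39 were measured. By limma, adjusted over all probes tested, 9 were lower, 0 were higher and 30 were not called. At an unadjusted p under 0.05, 15 were lower and 4 higher. The share of all named genes with a called brightest probe was 8.54% lower and 8.76% higher. The median difference was -0.18 over the 39 genes and -0.02 over all named genes. The count that was lower fell to 4 when bromate replicate 2 was left out, to 6 when bromate replicate 1 was, and to 5 when bromate replicate 3, water replicate 2 or water replicate 3 was.

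Among 16 measured carrier partners and regulators, limma called 5 lower and 0 higher (7 and 3 at an unadjusted p under 0.05), and 11 were not called. Hnf4a, which encodes a nuclear receptor of liver and proximal tubule, was at 3.07, 2.95 and 3.13 under bromate, against 3.82, 3.78 and 3.64 under water. Its groups did not overlap, and it was 1.62-fold lower (adjusted p = 0.0100 by limma). Txnip, which encodes a glucose-induced protein that promotes removal of GLUT1 from the membrane, was 1.77-fold lower (adjusted p = 0.0102). The scaffold gene Pdzk1 was 1.58-fold lower (adjusted p = 0.0526 without bromate replicate 2), and the transcription factor gene Foxo1 was 1.29-fold lower (adjusted p from 0.0626 to 0.105 on leaving out any 1 array). Pdzk1ip1, which encodes the SGLT2 partner MAP17, differed by -0.34 ± 0.10 and missed the threshold (adjusted p = 0.0721).

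Of 10 other carriers of the Slc5 and Slc2 families that were measured, limma called 0 higher and 0 lower (1 and 3 at an unadjusted p under 0.05). Slc5a11, a sodium-coupled inositol carrier gene, had a difference of -0.41 ± 0.11 (adjusted p = 0.0619). Slc5a10, which encodes the mannose and fructose carrier SGLT5 and was chosen after its values were seen, was at 1.12, 1.49 and 1.89 under bromate, against 3.97, 2.72 and 0.71 under water. Its water values spread in the order of Slc2a5 and of the mean of the straight tubule markers, and its difference was -0.97 ± 0.80 (adjusted p = 0.442). Among 3 genes of the sodium pump, which maintains the gradient that drives SGLT carriers, the regulatory subunit gene Fxyd2 was 1.60-fold lower (adjusted p = 0.00672), and the other 2 were not called.

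Of 10 measured enzymes and carriers of the first steps of sugar use and release, limma called 3 lower and 0 higher. At an unadjusted p under 0.05 these counts were 4 and 0, and 7 were not called after adjustment. Khk, which encodes the fructose kinase ketohexokinase, was at 7.18, 6.98 and 7.25 under bromate, against 8.31, 7.82 and 7.80 under water (1.79-fold lower, adjusted p = 0.0276, and from 0.0558 to 0.0887 when 1 array was omitted, except that the call held when this was water replicate 1). G6pc1, the catalytic subunit gene of glucose 6-phosphatase, was at 7.01, 6.65 and 6.56 under bromate, against 7.33, 7.50 and 7.59 under water. It was 1.66-fold lower (adjusted p = 0.0283), and this call was lost when bromate replicate 2 or 3 or water replicate 2 or 3 was omitted (highest adjusted p = 0.093). Slc37a4, which carries glucose 6-phosphate to that enzyme, was 1.33-fold lower (adjusted p = 0.0319, and from 0.0582 to 0.105 when any of 5 arrays was omitted, water replicate 1 being the exception).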

How the data were processed

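Total RNA was labelled with Cy3 and hybridised to Agilent arrays, per the labels' protocols, and the scans were quantified in Feature Extraction (10.7 by the submitters' processing notes). The deposited processed signal is the software's processed intensity, not scaled between arrays, on a design annotated on rn4, per the file headers. The authors' deposited values are also a linear ratio; set against the scanner values, it equalled the signal over the array's 75th percentile to within 0.925% at the worst probe, with column medians of 0.1025 to 0.1054, no centring by gene and the direction of the signal. None of this is stated in the labels.

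Log2 intensities were reduced by each array's log2 75th percentile, outlier spots (0 to 4 per array) were left out, and each probe well above background on at least 3 arrays was tested with lmFit and eBayes of limma 3.58.1 (R 4.3.3), Benjamini-Hochberg adjusted over 37781 probes at 0.05. The fit was tested on simulated data. Accessions were named through the RefSeq genes of assembly GRCr8 (28206 probes, 45.8%, had 1 symbol, 0 several, 33331 none); its coordinates are given for the 2 printed promoters only. Normexp used the median spot intensity. List genes stand by their brightest probe. All probes of the 8 genes are named, and from each list up to 4 called genes with the largest change (else the brightest), with Foxo1, Pdzk1ip1, Slc5a10 and Slc7a13 named after their values were seen; a few genes the rule names are not reported here. The members and lists were chosen with earlier results of these data known. The number of arrays limits the precision, and the series' design calls the samples biological replicates. Alternatives were other normalizations and background correction, filters, probe summaries, a robust variance, slide and replicate blocks and each array left out.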

Additional observations from a re-analysis of the deposited data

How the results depend on the processing

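The 3 Slc2a2 probes stayed higher and called under each alternative that was run, with log2 differences of 1.01 to 1.44 and adjusted p up to 0.0495. The 3 Slc5a2 probes stayed lower, between -1.23 and -0.83, and were called under each alternative other than the replicate block. The number of carrier probes called was 3 higher and 3 lower on leaving out any 1 array. With 1 value per gene (brightest probe, or mean of probes) it was 1 and 1. The differences of Slc5a1 probe 1 changed sign under normexp (0.065), with slide as a block or without water replicate 1 (0.10 in both) and without bromate replicate 2 (0.15), and that of probe 2 without bromate replicate 2 (0.014); on leaving out 1 array they ranged from -0.12 to 0.15 and from -0.52 to 0.014, and none was called.

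Replicate numbers are shared between the groups. Deviations from group means correlated at 0.06, 0.07 and -0.09 for same-numbered arrays 1, 2 and 3 over the probes tested. For differently numbered arrays the range was -0.12 to 0.09. These values show no sign of pairing, but with so few arrays they cannot exclude it. With a replicate block, limma called 0 carrier probes lower (5 at an unadjusted p under 0.05) and 3 higher, 3 genes of the glucose lists lower, and 829 probes higher and 757 lower of all. Leaving out 1 array, all probes called ranged from 871 to 2064 higher and from 785 to 2310 lower, against 2717 and 2872 with all arrays, and the glucose list genes called lower from 4 to 10. Without a filter on dim probes these counts were 1091, 1023 and 5. On leaving out 1 array the pair differences ranged from -2.18 to -1.96 (Slc5a2 minus Slc2a2), from -0.36 to -0.08 (Slc5a1 minus Slc2a1) and from -1.13 to -0.72 (Slc5a2 minus Slc5a1). Signal over background limits Slc2a3, not well above background on any array, and Slc2a4 probe 2, well above it on 1 water array.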
